A study of Mus musculus with 12 samples.

Results

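The respiratory chain genes described here are those that encode subunits of the oxidative phosphorylation complexes, together with genes named alike for their assembly. Members were every row of the peak table whose annotated gene symbol starts with Nduf, Uqcr, Cox4 to Cox8 or Atp5, is one of Sdha to Sdhd, or is Cyc1 or Cycs. The rule took 188 of 52530 peaks, annotated to 87 of 15001 gene symbols. By complex, 37 genes belonged to complex I, 3 to complex II, 9 to complex III, 14 to complex IV and 15 to complex V, and the others were Cycs and 8 complex I assembly factors of the Ndufaf series. Genes were assigned to complexes by their symbols. Ndufa4, whose product is now known as a subunit of complex IV, is thus counted under complex I, and Cox7a2l under complex IV. Likewise, an Atp5 symbol alone does not show that a gene encodes a subunit of the ATP synthase. Sdha was not analysed here.

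The respiratory chain sits in the inner mitochondrial membrane. Complexes I and II pass electrons from NADH and succinate to ubiquinone, complex III passes them on to cytochrome c, complex IV hands them to oxygen, and complex V, the ATP synthase, makes ATP from the proton gradient. In fasted liver the chain reoxidizes the NADH and FADH2 that fatty acid oxidation yields and supplies ATP for gluconeogenesis. Most subunits are encoded in the nucleus and the others in mitochondrial DNA. NRF1, the ETS factor GABP, YY1 and ERRα, aided by PGC-1 coactivators, are known regulators of the promoters of the nuclear genes.

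Accessible chromatin was measured in hepatocyte nuclei from female mice of the HEP-INTACT model by ATAC-seq, an assay whose transposase inserts sequencing adapters into open DNA. INTACT isolates tagged nuclei of a chosen cell type on beads. 3 mice fasted for 16 h from ZT12, the onset of their active phase, and 3 mice fed ad libitum were killed at that same time. Each mouse gave 1 library from fresh and 1 from frozen liver, which makes 4 groups of 3 libraries (fed fresh, fasted fresh, fed frozen, fasted frozen). All mice carried the HEP-INTACT alleles. The sources used here give neither strain nor age nor the driver of the nuclear tag. The labels name 1 mouse per number, so mice are the biological replicates, and fresh and frozen libraries of a mouse are repeated measures of it.

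Each value below is a normalized read count of a 200 bp peak. Some peaks of a gene overlap, so peaks are not always separate sites. Reads in peaks ranged from 3692152 to 14506057 per library, with a median of 51 to 217 reads per peak. Member peaks held 0.388% to 0.445% of all normalized reads. Of 8 hepatocyte markers 7 had a peak at the gene start, with mean levels from 208 to 414, and their summed level was 1647 to 1709 in fed fresh, 1803 to 1992 in fasted fresh, 2062 to 2107 in fed frozen and 2309 to 2715 in fasted frozen libraries. None of 5 macrophage, 5 endothelial and 5 lymphocyte markers had a gene start peak in the table. Of 5 stellate cell markers 1 did (Reln, mean level 91.5, range of its level over the 4 groups 51.2 to 134). Of 4 bile duct markers 1 did (Sox9, mean level 98.4, range 65.1 to 137). Peaks away from the gene start were annotated to each endothelial marker (Stab2 6, Cdh5 5, Pecam1 2, Kdr 2 and Lyve1 1). Adgre1, Csf1r, Ptprc, Col1a1 and Epcam had 1 such peak each, and the hepatocyte marker Ttr, without a gene start peak, had 9.

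5 promoters are shown because the results below turn on them: Cycs, Atp5g2, Cox6a1 and Atp5g3 rose under fasting or freezing, and Cox7c fell most among gene start peaks on freezing. Each line gives the 250 bases before the annotated gene start, 5′ to 3′ on the gene's strand (RefSeq, GRCm38.p6). Capitals mark matches, on either strand, to the letters searched: GCATGCGC for NRF1, CCGGAAG for ETS factors, AAGATGGCG for YY1, TCAAGGTCA for ERRα and GGGCGG for SP1.
Cycs, chr6:50566570-50566819, minus strand: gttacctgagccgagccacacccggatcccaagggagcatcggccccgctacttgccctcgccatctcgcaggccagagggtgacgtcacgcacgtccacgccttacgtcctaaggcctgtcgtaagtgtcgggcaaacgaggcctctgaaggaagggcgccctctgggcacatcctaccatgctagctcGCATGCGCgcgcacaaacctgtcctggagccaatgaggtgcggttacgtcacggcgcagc
Atp5g2, chr15:102671048-102671297, minus strand: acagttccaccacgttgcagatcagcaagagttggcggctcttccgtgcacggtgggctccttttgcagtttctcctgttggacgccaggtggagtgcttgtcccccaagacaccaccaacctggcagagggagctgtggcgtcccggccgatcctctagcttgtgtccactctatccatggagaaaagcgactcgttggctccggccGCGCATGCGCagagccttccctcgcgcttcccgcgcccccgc
Cox6a1, chr5:115348959-115349208, minus strand: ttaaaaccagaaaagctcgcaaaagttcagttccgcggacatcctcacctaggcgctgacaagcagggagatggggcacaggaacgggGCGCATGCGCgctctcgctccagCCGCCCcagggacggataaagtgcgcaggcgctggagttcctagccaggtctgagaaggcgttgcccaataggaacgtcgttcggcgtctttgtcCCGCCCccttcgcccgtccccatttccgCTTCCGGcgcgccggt
Atp5g3, chr2:73911327-73911576, minus strand: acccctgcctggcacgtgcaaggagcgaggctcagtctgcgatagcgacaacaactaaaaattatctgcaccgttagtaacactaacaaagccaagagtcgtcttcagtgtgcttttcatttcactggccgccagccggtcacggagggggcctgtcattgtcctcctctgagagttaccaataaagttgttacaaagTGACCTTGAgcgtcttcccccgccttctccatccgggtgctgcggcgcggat
Cox7c, chr13:86046796-86047045, minus strand: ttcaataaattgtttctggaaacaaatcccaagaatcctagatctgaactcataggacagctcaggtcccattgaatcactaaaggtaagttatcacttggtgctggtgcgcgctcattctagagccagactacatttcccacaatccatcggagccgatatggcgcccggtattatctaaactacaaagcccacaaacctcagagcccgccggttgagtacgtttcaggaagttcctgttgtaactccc
In Cycs the capitals mark 1 NRF1 match whose first base lies 60 bases upstream of the gene start. In Atp5g2 (first base 42 bases upstream) and Cox6a1 (162 bases upstream) the NRF1 letters read on both strands and overlap in a palindrome, and Cox6a1 also holds an ETS match 16 bases upstream and SP1 letters. In Atp5g3 the capitals mark the ERRα letters, on the opposite strand, 52 bases upstream. Cox7c held none of the searched letters, which says only that they are not in this window.

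RefSeq windows of 300 bases (250 before and 50 after the start) were matched for 65 of the 77 member genes with a gene start peak. The NRF1 letters were in 12 of the 65 windows (18.5%), against 6.06% of 8775 genes with a gene start peak and 2.71% of all 32851 windows. YY1 letters were in 8 windows (12.3%), against 3.44% and 1.40%. ETS letters were in 24.6%, against 19.6% and 8.86%, and ERRα letters were in 1 window, that of Atp5g3 (1.54%, against 0.239% and 0.423%). SP1 letters were less frequent among the members, at 44.6% against 68.4% of genes with a gene start peak, and 35.7% of all windows. The members' windows had a median GC content of 57.3%, against 61.7% for those genes. A match describes the sequence only and is not a measured binding site.

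Of the 188 peaks 113 lay within 1 kb of the annotated gene start and 75 beyond. At least 1 peak within 1 kb was present for 77 genes, and the nearest one is called the gene start peak. It lay within 200 bp of the start for 71 of them. Sdhd, Uqcr10, Cox4i2, Cox6c, Cox8b, Atp5h, Ndufa4l2, Ndufa8, Ndufb3 and Ndufb9 had peaks beyond 1 kb only. Gene start peaks had a median level of 227 normalized reads, against 195 for all genes. The highest were Atp5j (476), a stalk subunit of the ATP synthase, Sdhb (450), the iron-sulfur subunit of complex II, and Atp5e (447). The lowest were Cox6b2 (39.1), Ndufs4 (42.0) and the assembly factor Ndufaf2 (55.4). 17 of the 77 gene start peaks had the start of another gene within 500 bp, such as Atp5j with Gabpa, Ndufb5 with Mrpl47, Ndufs3 with Kbtbd4, Ndufa11 with Vmac and Cycs with 5430402O13Rik, so that their values cannot be told apart from those of the neighbour.

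**Figure D1:**
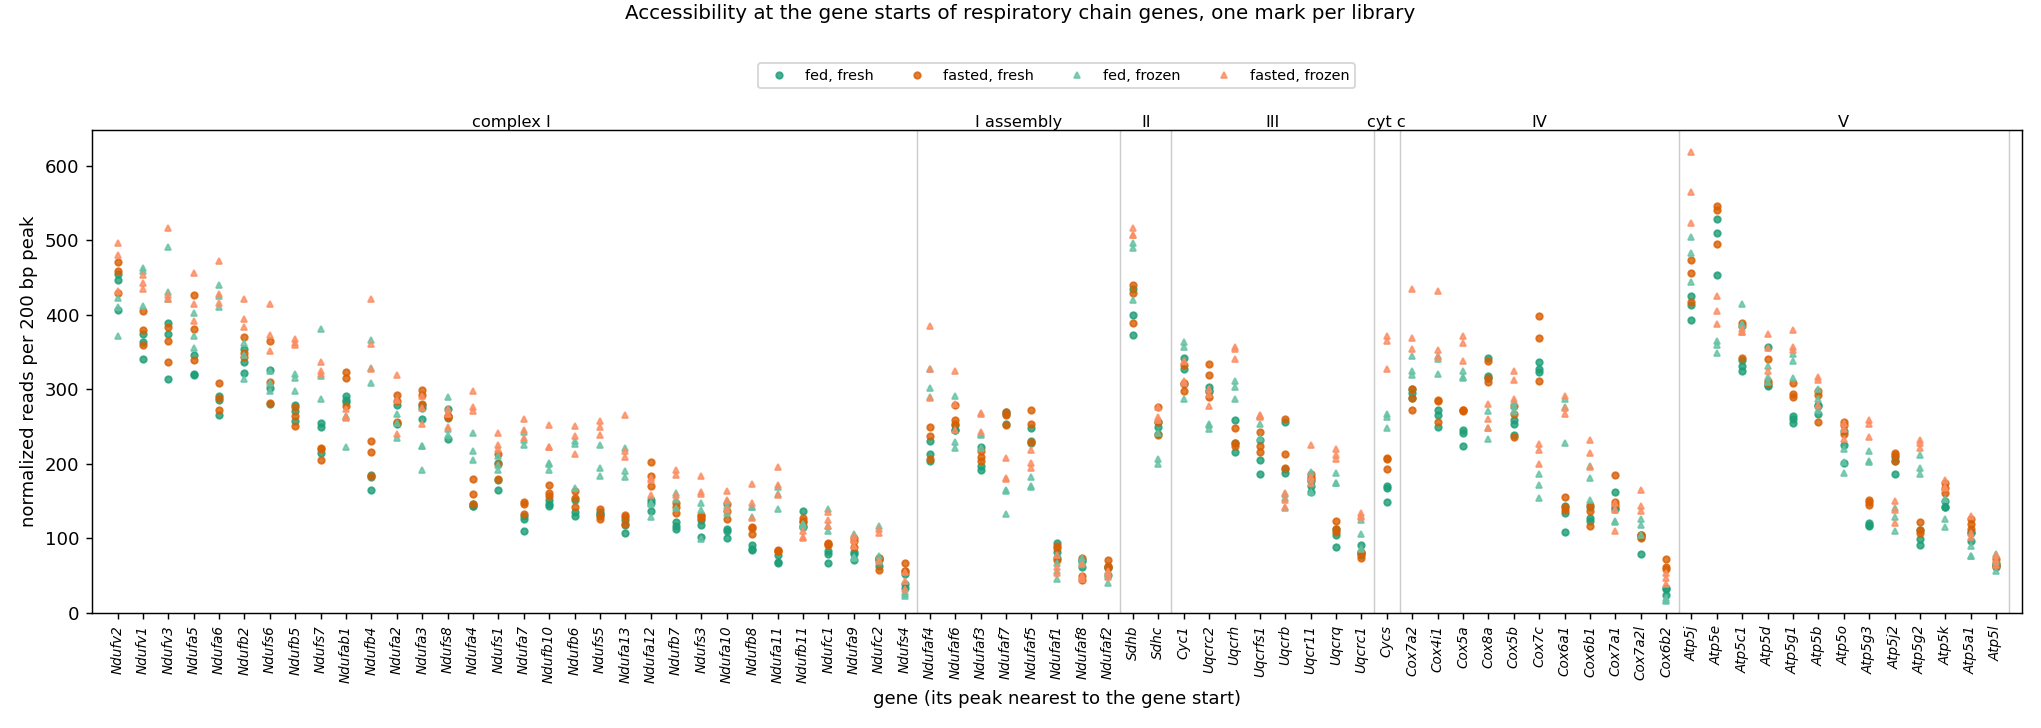
Normalized reads of the gene start peak of 75 genes (y axis), grouped by complex and ordered by mean level (x axis), 1 mark per library and 3 libraries per group. Levels run from 39.1 for Cox6b2 to 476 for Atp5j, and for many genes the triangles of frozen liver stand above the circles of fresh liver.

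Fasting was tested on the mean of each mouse's fresh and frozen library, 3 fasted against 3 fed mice. Within 1 kb of gene starts 22 of 113 member peaks were higher and 1 was lower after fasting (limma, adjusted p under 0.05 over all peaks), against a background of 19.7% higher and 4.59% lower among all 18534 peaks of this kind. The members' share of higher calls therefore lay at the background. The median log2 difference was 0.15 for the members and 0.12 for all such peaks. Fasted and fed libraries did not overlap, across both preparations, at 6 of the 113 peaks, against a background of 6.73%.

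These small shifts depend on the scale set between libraries. With libraries scaled to an equal median over all peaks within 1 kb, the members' median was 0.03, 5 were higher and 3 lower. Of all such peaks 6.45% were then higher and 8.63% lower. Of the 22 peaks called higher, 5 remained called on that scale: Cycs, Cox6b2, and peaks of Ndufa2 (219 bp from its start), Ndufaf4 (265 bp) and Atp5d (469 bp). With libraries scaled over peaks beyond 1 kb, all 22 remained and 58 of the 113 were higher. Of all peaks within 1 kb 39.1% were higher and 3.39% lower on that scale. The median of all peaks was 0.05 on the authors' scale, -0.08 on the former and 0.13 on the latter. 5 of the 22 were called whichever mouse was left out (Cycs, Cox6b2, the Ndufa2 and Atp5d peaks just named and the Atp5g3 gene start peak).

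In complex I 6 of 40 peaks within 1 kb were higher and none lower, with a median log2 difference of 0.17. For this and the other complexes below the background was 19.7% higher and 4.59% lower. Ndufa12, an accessory subunit near the peripheral arm, had the largest difference among gene starts of complex I at which fed and fasted libraries did not overlap. Its values were 136, 147 and 151 in fed fresh, 183, 170 and 202 in fasted fresh, 148, 129 and 146 in fed frozen and 177, 158 and 180 in fasted frozen libraries. Every fasted library stood above every fed one. Per mouse the level was 143 ± 5.35 (SD, n = 3) fed and 179 ± 13.8 fasted, a log2 difference of 0.32 ± 0.08 (SE; limma adjusted p = 0.0173, and 0.0990 with libraries scaled over peaks within 1 kb). Without fed mouse A, fed mouse B or fasted mouse A its adjusted p rose to at most 0.0604.

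The gene starts of Ndufa3 (0.23 ± 0.07), Ndufb7 (0.25 ± 0.09), Ndufa4 (0.25 ± 0.08) and Ndufs4 (0.63 ± 0.19) were also called, and each lost its call without at least 4 of the 6 mice in turn. The Ndufs4 peak, the second lowest of all gene starts, lies in an intron 404 bp from the start. The sixth peak was that of Ndufa2, 219 bp into the gene and annotated to the promoter of Ik, with 66.8 ± 11.7 reads in fed and 126 ± 16.3 in fasted mice (log2 difference 0.93 ± 0.15, adjusted p = 0.0016). The peak at the Ndufa2 start itself differed by 0.12 ± 0.08 (adjusted p = 0.292).

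None of 6 core subunits, among those that carry the flavin and the iron-sulfur clusters or bind ubiquinone, was called at its gene start. Their log2 differences ran from -0.07 ± 0.08 for Ndufs7 and 0.04 ± 0.06 for Ndufv1, which binds NADH, to 0.29 ± 0.12 for Ndufs3 (adjusted p = 0.0737). Ndufs1, Ndufv2 and Ndufs8 had 0.16, 0.14 and 0.04. Over all core catalytic subunits of the chain 1 of 16 peaks within 1 kb was higher (Atp5a1). Among assembly factors of complex I 1 of 13 peaks was higher, the Ndufaf4 peak 265 bp from the start (0.59 ± 0.16, adjusted p = 0.0199).

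Complex II had 2 peaks within 1 kb and neither was called. Sdhb, which carries electrons within the complex, measured 436 ± 35.5 in fed and 465 ± 15.3 in fasted mice (log2 difference 0.09 ± 0.07). Sdhc, a membrane anchor, measured 232 ± 7.85 and 262 ± 6.59 (0.18 ± 0.06, adjusted p = 0.0529). In complex III 1 of 16 peaks was higher, that of Uqcrq 399 bp into the gene (0.30 ± 0.08, adjusted p = 0.0162). The gene starts of Cyc1, the cytochrome c1 heme protein, and Uqcrfs1, the Rieske protein, differed by -0.06 ± 0.08 and 0.11 ± 0.07 (adjusted p = 0.557 and 0.222).

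Cycs, which encodes the mobile carrier cytochrome c, rose in both preparations. Its gene start peak, chr6:50566446-50566646, read 170, 167 and 149 in fed fresh and 207, 193 and 207 in fasted fresh libraries. In frozen liver it read 262, 248 and 266 in fed and 365, 327 and 372 in fasted libraries. The groups did not overlap within either preparation, but every frozen fed library stood above every fresh fasted one. The level per mouse was 211 ± 4.60 fed and 278 ± 16.1 fasted, a log2 difference of 0.38 ± 0.07 (limma adjusted p = 0.0026), with 0.32 ± 0.09 in fresh (adjusted p = 0.0169) and 0.45 ± 0.09 in frozen liver (adjusted p = 0.0027). It remained called with libraries scaled over peaks within 1 kb, at 0.26 (adjusted p = 0.0187). This is the peak whose promoter holds the NRF1 letters printed above.

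In complex IV 2 of 15 peaks within 1 kb were higher. Cox5a, a matrix-side subunit, measured 278 ± 7.36 in fed and 314 ± 8.50 in fasted mice (0.18 ± 0.06, adjusted p = 0.0363, and 0.535 with libraries scaled over peaks within 1 kb). Cox4i1, the common form of subunit 4, and Cox7a2l, which links complexes III and IV, differed by 0.11 ± 0.07 and 0.24 ± 0.10 at their gene starts (adjusted p = 0.234 and 0.0896).

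The other called peak of complex IV was that of Cox6b2, the testis isoform of subunit 6b, and its difference was the largest of all member peaks within 1 kb. The peak lies 280 bp from the gene start and is annotated to the end of the neighbouring transcript of Fam71e2. It read 32.8, 23.9 and 31.5 in fed fresh, 61.8, 71.7 and 58.8 in fasted fresh, 15.5, 19.1 and 17.5 in fed frozen and 52.8, 46.2 and 37.8 in fasted frozen libraries. All fasted libraries stood above all fed ones. The log2 difference was 1.22 ± 0.19 (adjusted p = 0.0013), from 23.4 ± 1.65 to 54.8 ± 5.72 reads per mouse. Cox7a1, the heart and muscle form, had a gene start peak of 138 ± 5.69 in fed and 145 ± 19.0 in fasted mice, which was not called (0.07 ± 0.10). Of the other isoforms known from other tissues, Cox4i2, Cox8b and Ndufa4l2 had peaks beyond 1 kb only.

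Complex V had 11 higher peaks and 1 lower among 26 within 1 kb (median 0.19), against a background of 19.7% higher and 4.59% lower. Whether these shares differ was not tested. Of the 11, only the Atp5d peak named above remained called with libraries scaled over peaks within 1 kb. Atp5a1, the catalytic-head α subunit, measured 92.0 ± 6.43 in fed and 116 ± 10.5 in fasted mice (0.34 ± 0.11, adjusted p = 0.0399). Atp5b, the catalytic β subunit, measured 280 ± 4.69 and 292 ± 8.71 (0.06 ± 0.06, adjusted p = 0.474). 3 genes, Atp5g1 to Atp5g3, encode the same mature subunit c of the rotor ring. Atp5g3 was called (0.29 ± 0.07, adjusted p = 0.0115), while Atp5g1 (0.16 ± 0.06, adjusted p = 0.0506) and Atp5g2 (0.19 ± 0.08, adjusted p = 0.0898) missed the threshold, and the differences among the 3 genes were not tested.

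The Atp5g3 gene start peak, chr2:73911228-73911428, read 120, 117 and 118 in fed fresh, 148, 145 and 151 in fasted fresh, 203, 204 and 216 in fed frozen and 258, 236 and 254 in fasted frozen libraries. Fed and fasted libraries were separate within each preparation. With libraries scaled over peaks within 1 kb its difference was 0.17 (adjusted p = 0.0934). Atp5k, a membrane subunit, measured 138 ± 12.0 in fed and 169 ± 6.21 in fasted mice (0.30 ± 0.09, adjusted p = 0.0263). Atp5j was higher at 3 peaks, its gene start (0.19 ± 0.06) and 2 others (0.42 ± 0.12 and 0.37 ± 0.10), a stretch it shares with the start of Gabpa.

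Beyond 1 kb the direction was the opposite: 4 of 75 member peaks were higher and 22 lower after fasting, against a background of 14.8% higher and 25.4% lower among 33996 peaks. The median log2 difference was -0.06, and -0.05 for all peaks beyond 1 kb. These counts too depended on the scale. With libraries scaled over peaks beyond 1 kb 12 were higher and 19 lower and the members' median was 0.02. With the scale over peaks within 1 kb they were 3 and 29, and with quantile normalization 9 and 20. In that order 22795, 16913 and 19108 of all 52530 peaks, near and distal together, were called. The shares of all peaks beyond 1 kb on these scales are not given here, so whether the members differ from other distal peaks on them was not tested. All 22 remained lower with libraries scaled over peaks within 1 kb and 19 with the scale over peaks beyond 1 kb, and 17 were called whichever mouse was left out. The fall exceeded 1 on the log2 scale at 11 of the 22.

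**Figure D2:**
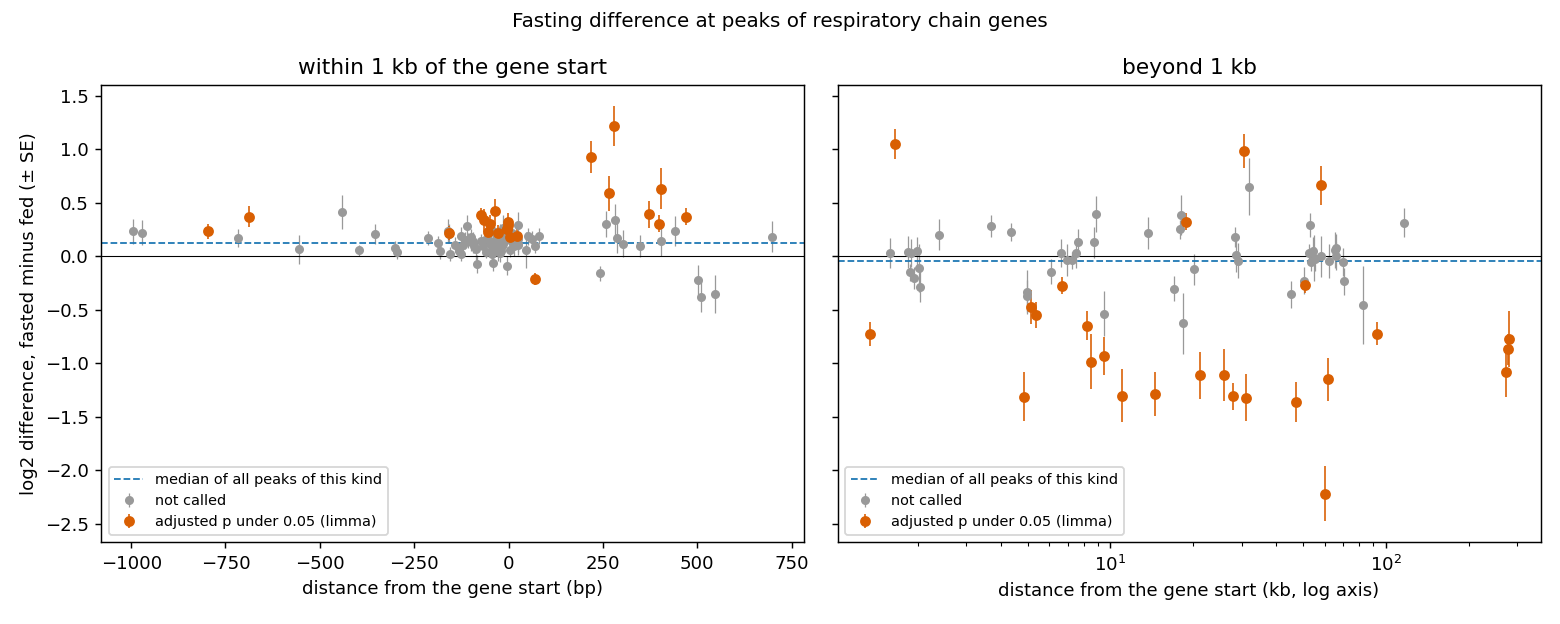
Log2 difference of fasted minus fed mice (y axis, ± SE, n = 3 mice per state) of the 188 member peaks against distance from the annotated gene start (x axis, bp on the left, kb on a log axis on the right). Called peaks within 1 kb lie between -0.21 and 1.22, and most called peaks beyond 1 kb lie below 0, down to -2.22.

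A peak counts for the nearest gene start, which is not evidence that it acts on that gene. Of the 75 distal peaks 35 lay inside another gene, 13 inside the member gene itself and 27 between genes, at a median distance of 18.3 kb and at most 279 kb, and 16 overlapped an annotated repeat. Of the 22 that fell, 9 were intergenic, 10 lay in another gene and 3 in their own gene.

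At Atp5g3 the gene start peak rose while 3 distal peaks upstream fell. The peak 60.1 kb upstream, chr2:73971278-73971478, read 53.2, 82.3 and 73.6 in fed fresh and 17.6, 16.1 and 27.1 in fasted fresh libraries. In frozen liver it read 47.6, 97.2 and 109 in fed and 11.8, 11.3 and 11.1 in fasted libraries. All fasted libraries stood below all fed ones. Its log2 difference of -2.22 ± 0.26 was the largest of any member peak (limma adjusted p = 0.00039).

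The peak 27.8 kb upstream of Atp5g3, chr2:73939004-73939204, read 185, 234 and 185 in fed fresh, 110, 109 and 96.1 in fasted fresh, 154, 124 and 127 in fed frozen and 47.3, 46.2 and 31.2 in fasted frozen libraries. Fed and fasted libraries again did not overlap (log2 difference -1.31 ± 0.13, adjusted p = 0.00019). The peak 8.51 kb upstream measured 69.0 ± 15.4 in fed and 37.1 ± 14.2 in fasted mice (-0.98 ± 0.26, adjusted p = 0.0163), and lost its call without fed mouse C or fasted mouse A.

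Ndufb9, a complex I accessory subunit, had no gene start peak and 14 distal ones, of which 13 lie in introns of Mtss1. The 1 that was called under fasting, 47.2 kb from the Ndufb9 start at chr15:58980862-58981062, read 104, 63.7 and 71.6 in fed fresh, 36.0, 32.2 and 26.0 in fasted fresh, 78.6, 68.5 and 70.1 in fed frozen and 30.0, 24.4 and 24.5 in fasted frozen libraries. No fasted library reached a fed one, and the log2 difference was -1.36 ± 0.19 (adjusted p = 0.00076). The other 13 were not called, with differences from -0.36 to 0.65.

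Other intergenic peaks with large falls were those of Cox7a2l 31.0 kb from its start (-1.32 ± 0.22), Ndufa6 4.86 kb upstream (-1.31 ± 0.23) and Ndufs5 14.5 kb upstream (-1.29 ± 0.21). At Ndufs7, whose gene start peak was not called, 3 of 4 distal peaks fell: -1.30 ± 0.25 and -0.93 ± 0.18 in Pwwp3a and -0.55 ± 0.12 in an intron of Ndufs7. All 3 distal peaks of Cox7c, between 273 and 279 kb away, fell as well (-1.09, -0.87 and -0.78), the last with a call that was lost without 5 of the 6 mice in turn.

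The 4 distal peaks that rose belonged to Sdhd, Cox4i2, Cox7a2l and Ndufa13. The Sdhd peak lies 1.65 kb into the gene, which encodes the second membrane anchor of complex II, in an intron at chr9:50602097-50602297. It read 68.3, 65.1 and 57.2 in fed fresh, 120, 109 and 101 in fasted fresh, 56.0, 38.2 and 35.9 in fed frozen and 98.3, 111 and 116 in fasted frozen libraries. Fasted libraries were all above fed ones, and the log2 difference was 1.05 ± 0.14 (adjusted p = 0.00068).

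Cox4i2, the hypoxia-related form of subunit 4, had 2 peaks, both in introns of Bcl2l1, that moved in opposite directions. The peak 30.6 kb from its start rose from 45.8 ± 7.06 to 90.6 ± 7.36 reads per mouse (0.98 ± 0.16, adjusted p = 0.0018), and the peak 21.1 kb from it fell from 134 ± 8.60 to 64.2 ± 20.7 (-1.11 ± 0.22, adjusted p = 0.0045). Ndufa4l2, likewise hypoxia-related, had 4 distal peaks, of which the 1 at the end of Shmt2 fell from 118 ± 5.12 to 71.1 ± 5.86 (-0.72 ± 0.11, adjusted p = 0.0015). Cox7a2l 58.2 kb upstream (0.66 ± 0.18) and Ndufa13 in Gatad2a (0.32 ± 0.08) rose less.

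**Figure D3:**
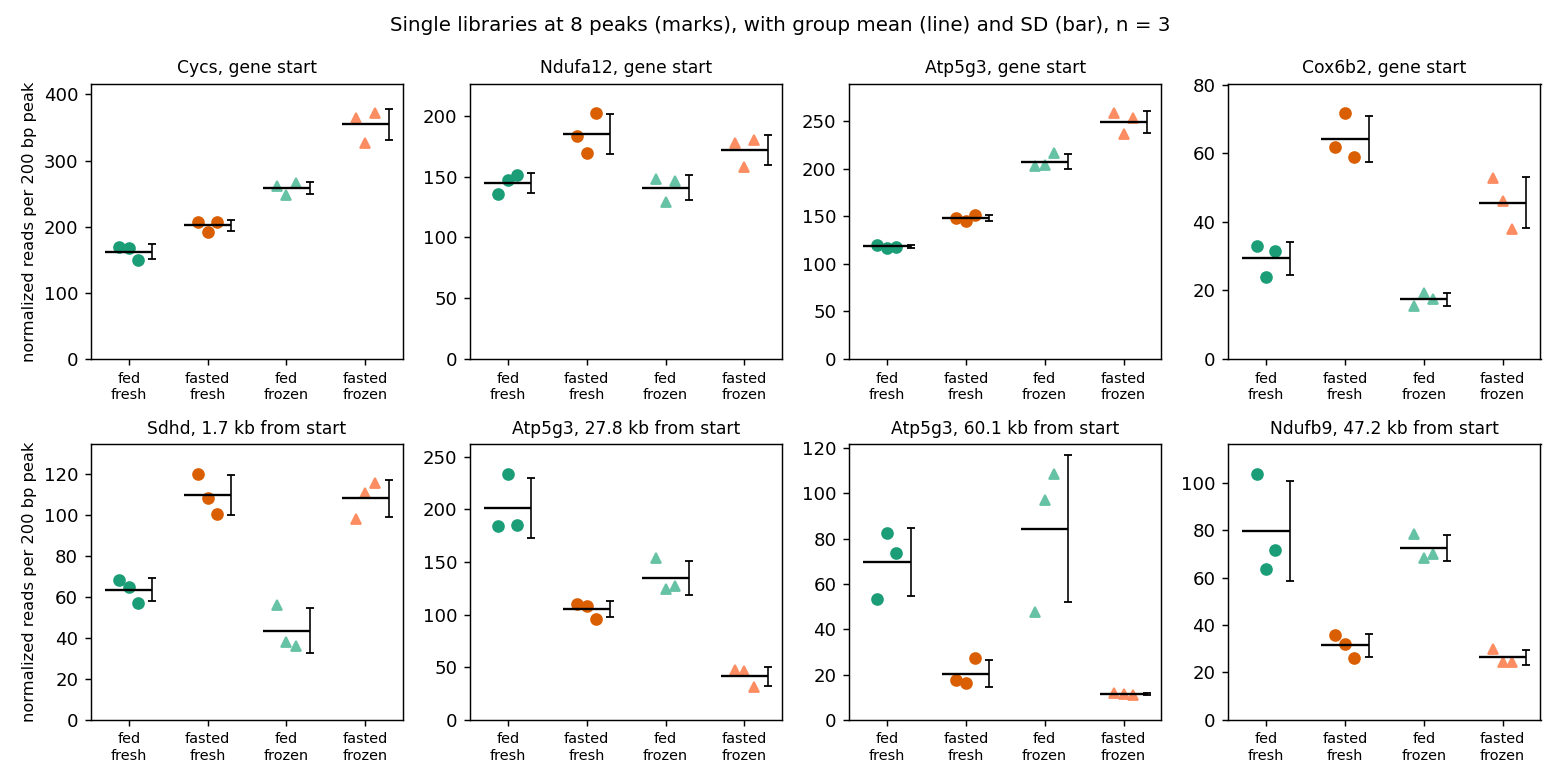
Normalized reads (y axis) of 8 member peaks in each of the 12 libraries by group (x axis), with the group mean as a line and the SD as a bar (n = 3). Fasted libraries stand above fed ones within each preparation in the upper row and at Sdhd, and below them at both distal Atp5g3 peaks and the Ndufb9 peak.

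Within fresh liver alone 15 of 188 member peaks were higher and 23 lower after fasting, against 11.4% and 16.1% of all 52530 peaks. Within frozen liver 23 were higher and 20 lower, against 12.8% and 15.0%. Of these, 6 were higher in both preparations, 40% of those in fresh and 26.1% of those in frozen liver, against 61.7% and 55.2% for all peaks. Lower in both were 18, 78.3% of those in fresh and 90% of those in frozen liver, against 75.1% and 81.0% for all peaks. Whether the members' overlaps differ from those of all peaks was not tested. By the authors' deposited table, in fresh liver 13 member peaks were higher and 21 lower, against 8.93% and 14.1% of all peaks. In frozen liver the authors' deposited table has 23 and 20, against 13.5% and 16.0% of all peaks. In fresh liver alone the gene starts of Ndufb8 (0.36, adjusted p = 0.0330) and Ndufa10 (0.34, adjusted p = 0.0339) were called by limma, and in frozen liver they had 0.11 and 0.09. The Ndufa7 peak 4.36 kb into the gene was called in frozen liver (0.37, adjusted p = 0.0234) and had 0.09 in fresh liver.

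Whether the fasting difference itself differed between frozen and fresh liver was tested as an interaction. No member was called by limma, against 0% of all 52530 peaks. 13 members had an unadjusted p under 0.05, against 2702 of all 52530 peaks. Of the other tools, edgeR called no peak at all, and DESeq2 called 15 of all peaks but no member. With the mouse as a replicate block 0.752% of all peaks were called, and 1 member among them, the peak 27.8 kb upstream of Atp5g3, whose log2 difference was -0.93 in fresh and -1.69 in frozen liver. Next in order of unadjusted p, without the block, were a Mtss1 intron peak of Ndufb9 52.8 kb from its start (0.45 ± 0.14, adjusted p = 0.856) and the shared start of Ndufb5 and Mrpl47 (0.25 ± 0.10, adjusted p = 0.938).

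More member peaks were called for freezing than for fasting, in a test that uses 12 libraries rather than 6 mouse means. With feeding state as a covariate, 57 of 113 member peaks within 1 kb were higher and 19 lower in frozen liver, against a background of 37.6% and 27.7%. The median was 0.17, and 0.06 for all peaks within 1 kb. With libraries scaled over those peaks 48 were higher and 24 lower (median 0.10 against -0.02 for all). The background on that scale was 31.8% higher and 33.3% lower. All 57 were called by DESeq2 too, and 50 were called whichever mouse was left out. Fresh and frozen libraries did not overlap at 46 of the 113 peaks, against a background of 36.2%. The sources used here do not give how long livers were frozen, and freezing cannot be told apart from any other difference in handling between the 2 sets of libraries.

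In complex I 24 of 40 peaks within 1 kb were higher and 3 lower (median 0.27). For this and the other complexes below the background on freezing was 37.6% higher and 27.7% lower. Ndufa11, a membrane arm subunit, had the largest difference of any member gene start. It read between 66.4 and 83.6 in the 6 fresh libraries and between 139 and 196 in the 6 frozen ones, with means of 76.4 ± 7.72 (SD, n = 6 libraries) and 165 ± 18.9. No frozen library overlapped a fresh one, and the log2 difference was 1.10 ± 0.08 (limma adjusted p = 1.1e-08). Ndufb4 and Ndufa7 rose by 0.86 ± 0.07 each, and the core subunit Ndufs7 by 0.53 ± 0.07. Ndufv2 and Ndufs8 differed by -0.03 and 0.00 and were not called. Assembly factors were mixed, with 3 of 13 higher and 4 lower, among them Ndufaf7 (-0.63 ± 0.08).

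In complex II Sdhb rose by 0.25 ± 0.05 and Sdhc differed by -0.08 ± 0.07 (adjusted p = 0.323). In complex III 9 of 16 peaks were higher and 3 lower, with Uqcrb at -0.51 ± 0.09 and Cyc1 at 0.03 ± 0.06. Cycs rose by 0.74 ± 0.06, from 182 ± 23.7 in the fresh to 307 ± 54.8 in the frozen libraries. Its fasting difference was 0.38, and the 2 were not tested against each other.

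Complex IV held both a large rise and the largest fall among gene start peaks. Cox6a1, the liver form of subunit 6a, rose from 137 ± 15.4 to 271 ± 22.7 (0.98 ± 0.08, adjusted p = 1.8e-08). Cox7c, a small subunit of the complex, fell from 344 ± 33.2 to 193 ± 27.7 (-0.84 ± 0.07, adjusted p = 4.0e-08). Its values were 311 to 399 in fresh and 154 to 227 in frozen libraries, without overlap. Of 15 peaks 8 were higher and 4 lower.

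In complex V 11 of 26 peaks were higher and 5 lower. All 3 subunit c genes rose, Atp5g2 by 0.99 ± 0.07, Atp5g3 by 0.78 ± 0.06 and Atp5g1 by 0.32 ± 0.05. Atp5g2 read 90.7 to 122 in fresh and 186 to 231 in frozen libraries. Atp5j2 (-0.64 ± 0.08) and Atp5e (-0.42 ± 0.05) fell, and Atp5b differed by 0.08 ± 0.06 (adjusted p = 0.213).

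**Figure D4:**
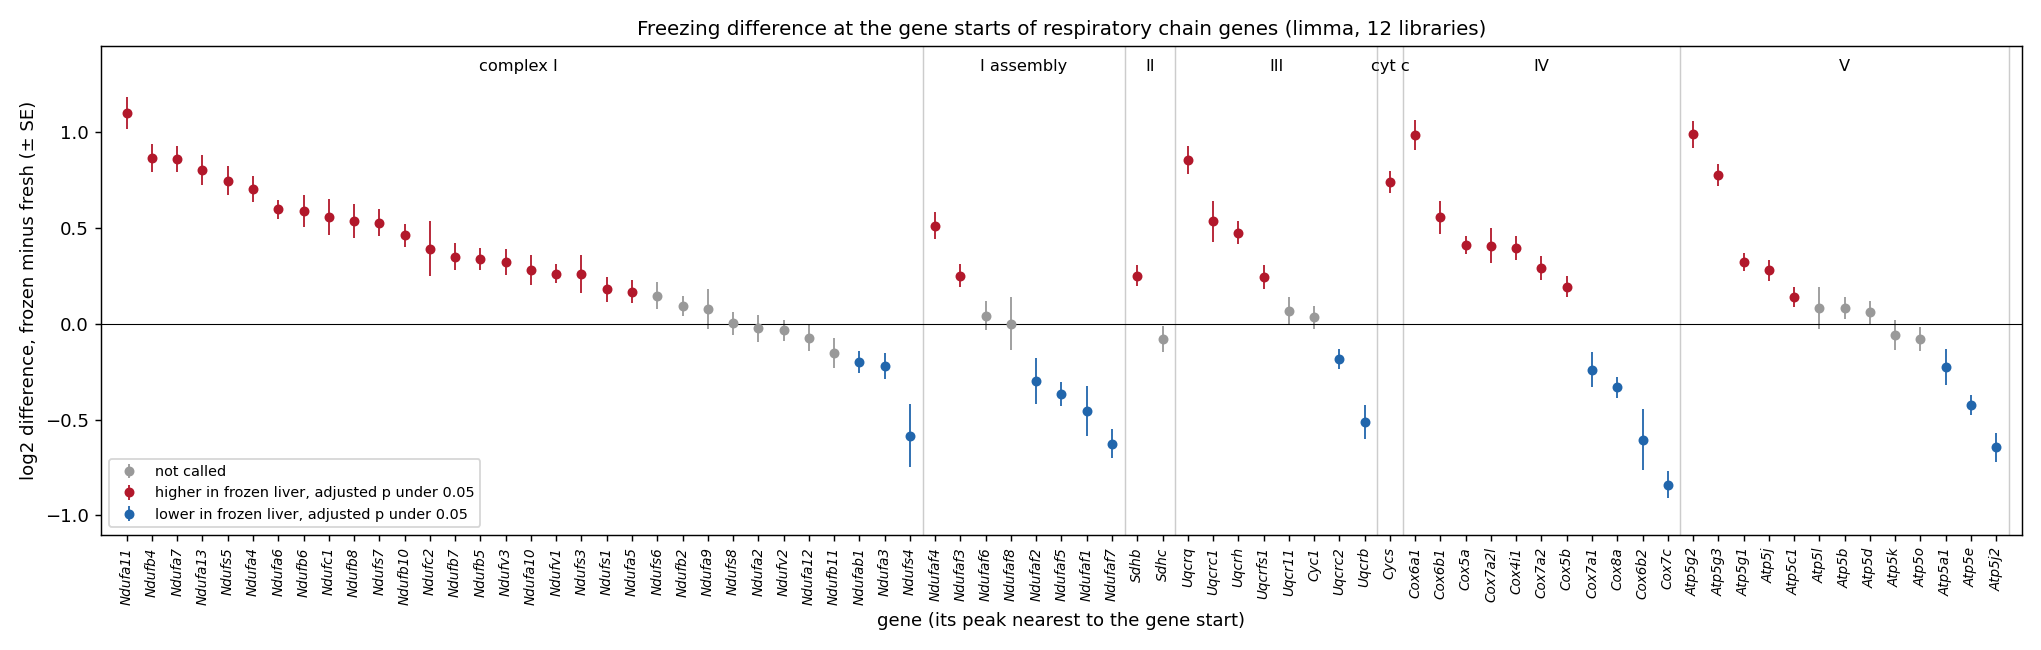
Log2 difference of frozen minus fresh libraries (y axis, ± SE, 12 libraries) at the gene start peak of 75 genes, by complex (x axis). Values run from 1.10 for Ndufa11 to -0.84 for Cox7c, and red and blue mark 41 peaks called higher and 16 called lower.

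The 12 members with the NRF1 letters in their window had a median freezing difference of 0.52, with 8 higher and 1 lower, and the 53 without them 0.19, with 30 higher and 12 lower. The same held over all genes with a gene start peak, with 0.28 for the 532 with the letters and 0.02 for the 8243 without. For the other letters the members' freezing medians with and without a match were 0.17 and 0.25 for ETS (16 and 49 members) and 0.11 and 0.25 for YY1 (8 and 57). The fasting medians of the members with and without the NRF1 letters were 0.12 and 0.15, and those of all genes 0.15 and 0.11. No difference between genes with and without a match was tested.

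Beyond 1 kb 19 of 75 member peaks were higher and 29 lower in frozen liver, against a background of 23.9% and 35.5%. The largest rises were in introns of other genes, at Cox6c in Vps13b (0.97 ± 0.11) and at Ndufb9 in Mtss1 (0.94 ± 0.10). The largest falls were in an intron of Ndufaf6 (-0.97 ± 0.11) and 27.8 kb upstream of Atp5g3 (-0.95 ± 0.14), and both peaks also fell under fasting. The Ndufs4 peak 116 kb from its start fell by 0.82 on the log2 scale, without overlap between fresh and frozen libraries.

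Genes that act with the chain were counted at peaks within 1 kb, where the background after fasting was 19.7% higher and 4.59% lower. After fasting 9 of 48 peaks of assembly factors outside the rule were higher and 1 lower, 8 of 25 citrate cycle peaks were higher and none lower, and 3 of 22 coenzyme Q synthesis peaks were higher and 1 lower. With libraries scaled over peaks within 1 kb the higher calls in these 3 lists were 2, 5 and 2, against a background of 6.45%. Mitochondrial ribosomal protein genes, which make the mitochondrially encoded subunits, had 17 of 89 peaks higher and none lower with a median of 0.15, equal to the members to 2 decimals. Proteasome subunit genes, a set outside mitochondria, had 10 of 45 higher and 1 lower (median 0.13). On freezing the same lists had 18 higher and 15 lower, 13 and 1, 7 and 8, 45 and 20, and 19 and 8. The numbers of peaks were as above, and the background on freezing was 37.6% higher and 27.7% lower. Of the members within 1 kb 57 of 113 were higher and 19 lower.

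Of 12 regulator genes, those named at the outset and others such as Tfam, 7 of 18 peaks within 1 kb were higher after fasting. None was lower, against that same background of 19.7% higher. The 7 are not all separate sites: they include overlapping peaks of Esrra and the Gabpa start, which lies in the Atp5j stretch described above. With libraries scaled over peaks within 1 kb, 3 of the 7 remained called, those of Ppargc1a, Tfb1m and Pprc1 described next. Ppargc1a, which encodes the PGC-1α coactivator that fasting is known to raise in liver, had a gene start peak of 122 reads in fed and 185 in fasted mice (0.61 ± 0.15, adjusted p = 0.0112, and 0.0330 on that scale). Tfb1m, a mitochondrial rRNA methyltransferase, rose by 0.48 ± 0.10 (adjusted p = 0.0056). Pprc1, a PGC-1 relative, rose by 1.00 ± 0.15 at a peak 707 bp into the gene (adjusted p = 0.0010). The Pprc1 gene start peak itself differed by 0.22 ± 0.09 and was not called (adjusted p = 0.0801). Esrra, which encodes ERRα, rose by 0.20 ± 0.05 at its gene start (adjusted p = 0.0155) on the authors' scale, and had 0.07 with libraries scaled over peaks within 1 kb (adjusted p = 0.371). Nrf1 differed by 0.04 ± 0.08 (adjusted p = 0.736) and Tfam, the mitochondrial transcription factor, by 0.14 ± 0.06 (adjusted p = 0.0688).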

How the data were processed

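ATAC-seq libraries were transposed and amplified from bead-bound nuclei, per the labels' protocols. Tools listed in the submitters' processing notes are HOMER, SAMtools, DESeq2 and BWA 0.7.5a-r405, with the build mm10. Duplicate removal, transposase shift, peak calling and the treatment of reads with several matches, which could affect repeats and duplicated genes, are not given in sources used here.

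The authors deposited 1 table of 52530 peaks of 200 bp with signal columns of normalized reads for 12 libraries, and for each preparation log2 fold changes of fasting with adjusted p-values, whose test is not stated. Coordinates are as that table gives them. 9 peaks name no gene and hold 0.0117% of reads. Every value was a whole multiple of 1 step per library (100% within 1e-06), from which depths and whole reads were recovered. The smallest value was 1 step in 4 columns and 2 to 5 steps in the other 8, where the step is inferred. Depths, edgeR and DESeq2 values rest on it.

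The fits took log2(value + 1) and used limma 3.58.1 under R 4.3.3 (trended variance, two-sided, Benjamini-Hochberg over all peaks, threshold 0.05, no filter on low values, so every member was tested). The table's columns carry letters A to C, which the labels do not tie to mouse numbers. Same-lettered fresh and frozen columns deviated together (r from 0.329 to 0.640 in 6 pairs, highest other r 0.0213), so each letter within a feeding state was treated as 1 mouse. This pairing comes from the data. Freezing and the interaction were fitted without a replicate block.

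Alternatives were other scales of the libraries, quantile normalization, a pseudocount of 10, a filter on the lowest 25% of peaks, edgeR 4.0.16 and DESeq2 1.42.0 on the recovered reads, the replicate block and leaving out each mouse. The fits were tested on simulated data. The simulated libraries were drawn independently, without an effect of the mouse, and differences were placed only in peaks above the median level. That check therefore does not test the pairing by mouse or the detection of differences at low peaks. Members and lists were chosen with earlier results of these data known. Named peaks are gene starts of core subunits and of Sdhc, Cycs, Cox4i1, Cox5a, Cox7a2l and Atp5g1 to Atp5g3, all peaks of isoforms known from other tissues, for each comparison the 5 higher and 5 lower called peaks with the largest differences and no overlap between groups, the 3 lowest interaction p-values and the 3 highest and 3 lowest gene start levels. Other called peaks and the regulators named were chosen after their values were seen. Some results on member peaks are not reported here, and their peaks are left out of the plots of gene start peaks.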

Additional observations from a re-analysis of the deposited data

Results flagged for a closer look

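The peak 27.8 kb upstream of Atp5g3 fell more under fasting in frozen than in fresh liver when the mouse was kept as a block: the difference of the 2 log2 differences was -0.77 ± 0.17 (SE; limma adjusted p = 0.0290). Without the block the same difference had an SE of 0.23 and an adjusted p of 0.781. All 3 mice of each state gave a library of each kind.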

How the results depend on the processing

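Of 188 member peaks 49 were called for fasting averaged over preparations, against 18163 of all 52530 peaks. The member count was 89 with libraries scaled over peaks beyond 1 kb (22795 of all peaks). It was 30 without the lowest 25% of peaks (11780 of the 39397 left). It was 23 over peaks within 1 kb only, where 19.7% of all peaks were higher and 4.59% lower. Over peaks annotated as promoter-TSS only it was 18. When single mice were left out it ran from 27 (without fasted mouse A) to 57 (without fasted mouse B). For these 2 settings 12411 and 17672 of all peaks were called. Without fed mouse A the member count was 30 (12359 of all peaks), and without fed mouse B it was 32 (11500 of all peaks). The split of 26 higher and 23 lower became 8 and 32 with libraries scaled over peaks within 1 kb. With the scale over peaks beyond 1 kb it became 70 and 19, and with quantile normalization 31 and 22. With edgeR's TMM factors it was 18 and 25, and with DESeq2 15 and 26. In the same order 16913, 22795, 19108, 16606 and 16313 of all peaks were called, higher and lower together. In fresh liver alone the median of members within 1 kb changed from 0.10 to -0.02 on the scale over peaks within 1 kb.

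In fresh liver 38 members were called, and 58, 20, 13 and 10 under the first 4 of these settings. On the scale over peaks beyond 1 kb 18960 of all peaks were called, and 8671 of the 39397 left by the filter. Of all peaks within 1 kb 13.2% were higher and 3.45% lower in fresh liver. Without single mice 25 to 44 members were called, against 9747 to 14642 of all peaks. In frozen liver 43 members were called, with 27 without the lowest peaks (9682 of the 39397 left) and 26 with DESeq2 (9891 of all peaks). Within 1 kb 19 were called, where 12.8% of all peaks were higher and 3.70% lower, and 16 at promoter-TSS. Without single mice 22 to 43 members were called, against 8711 to 14001 of all peaks. The member count was 22 without fed mouse B and 27 without fed mouse A or fasted mouse A (9871 and 10293 of all peaks). For freezing 124 members were called, 76 within 1 kb and 71 at promoter-TSS. Of all peaks within 1 kb 37.6% were higher and 27.7% lower in frozen liver. For promoter-TSS peaks the share over all peaks is not given here. Of all 52530 peaks 14477 were called in fresh liver, 14578 in frozen liver and 32316 for freezing. With the mouse as a replicate block 62 members were called for fasting (36 higher, 26 lower), against 20336 of all peaks. Fed and fasted mice differ, so that fit is not paired, and the block enters as a correlation between libraries of a mouse. In the fits paired by mouse 137 members were called for freezing (85 and 52) and 1 for the interaction, where 0 were called without the block. Of all peaks these paired fits called 36805 and 395. A filter on low peaks leaves fewer members to test, and leaving out a mouse leaves 2 of that state.

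For 115 results on named peaks, 1673 values under these settings gave 1512 with the same call, 139 that lost a call and 22 that gained one. Among those with the same call, 40 differed in sign and were called in neither fit. No called difference changed sign. The cause of these changes was not tested. There were 3 mice per state and a median of 51 to 217 reads per peak in a library, and whether more of either would change the calls was not tested.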
